A study of Homo sapiens with 6 samples.

Results

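The genes described here are those of the tumour necrosis factor (TNF) superfamily, the ligands and receptors through which cells instruct their neighbours to die, survive or respond to immune cells. They were chosen by name: protein-coding genes whose symbol starts with TNFSF or TNFRSF and a digit, together with TNF, LTA, LTB, LTBR, FAS, FASLG, CD27, CD70, CD40, CD40LG, NGFR, EDAR and RELT. The rule found 46 genes, 18 ligands and 28 receptors, among the 40488 genes of the table. They were measured by RNA sequencing in SCC90, a cell line grown from a human papillomavirus-positive tumour at the base of the tongue. The study compared 3 libraries of cells given a scrambled siRNA (siCTRL) with 3 libraries of cells given an siRNA against ΔNp63 (siDNp63), with RNA taken 72 h after transfection with Lipofectamine RNAiMAX. p63 is a relative of p53 that keeps the basal layer of stratified epithelia renewing, and ΔNp63 is its shorter form, made from an internal promoter of TP63. The labels give 10 nM for the ΔNp63 siRNA, while the study's methods give another concentration. Both groups are a single cell line and a single siRNA was used against ΔNp63, so effects of that siRNA on other transcripts cannot be told apart from effects of ΔNp63.

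TNF superfamily ligands are trimeric proteins, mostly anchored in the membrane, and many can be cut off the cell surface. Their receptors fall into 3 classes by what lies inside the cell. Death receptors carry a death domain that can recruit caspases, TRAF-binding receptors pass signals to NF-κB and stress kinases, and decoy receptors bind ligand without a full signal. In squamous epithelium the family is known for TRAIL-driven apoptosis, for CD40 and LTBR signals from lymphocytes, and for the ectodysplasin receptor EDAR in skin appendages.

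Library totals lay between 35716277 and 52598831 expected counts. TP63, the targeted gene, was at 42319, 44204 and 43700 normalized counts in siCTRL replicates 1, 2 and 3 and at 15520, 14474 and 15414 in siDNp63. These values add up all forms of p63. A normalized count is an expected count after TMM scaling, which evens out depth and composition across libraries. The siDNp63 replicate 1 library stood apart from its group on the second principal component (-39.1 against 25.6 and 24.8). Epithelial markers were high in every library, and their summed level, in the length-corrected unit TPM, was 5489 to 5558 TPM in siCTRL and 6306 to 6369 in siDNp63. KRT6A made up most of this sum and of its rise, with means of 3071 and 3694 TPM. TP63 is itself in the list and fell from 362 to 119 TPM. The basal keratins of that list were low, with KRT5 at a mean of 7.08 TPM and KRT14 at 0.524 TPM in siCTRL. In siDNp63 KRT5 was at 5.43 TPM and not called, and KRT14 at 1.49 TPM and called higher (edgeR adjusted p = 0.0110). Leukocytes are the usual source of many of these ligands. Of 16 leukocyte markers, 4 (CD3D, CD2, MS4A1 and TYROBP) had no count in any library, and PTPRC, which encodes CD45, had 7.38 to 10.2 expected counts. The summed leukocyte list was 16.5 to 18.2 TPM in siCTRL and 13.0 to 13.5 TPM in siDNp63. Its highest gene, CD68, was not called, with means of 8.32 TPM in siCTRL and 8.14 TPM in siDNp63. Of 5 tested leukocyte markers only CD14 was called. It fell from a mean of 3.68 to 1.46 TPM (log2 fold change -1.26, edgeR adjusted p = 0.0329). The sum of the 8 endothelial markers moved the other way, from 3.32 to 5.15 TPM in siCTRL to 13.2 to 15.3 TPM in siDNp63. Most of that rise was KDR (means 1.63 and 7.98 TPM) and PECAM1 (0.614 and 3.25 TPM). Of the 8 markers 4 were tested and 3 rose, KDR 5.16-fold, PECAM1 5.23-fold and VWF 1.84-fold in mean. Among those too low to be tested, CDH5, which encodes VE-cadherin, fell in mean from 0.0657 to 0.0272 TPM and CLDN5 from 0.0583 to 0.0451 TPM. TEK and EMCN, also too low, were higher in mean TPM. The 8 fibroblast markers summed to 8.72 to 10.8 TPM in siCTRL and 5.82 to 9.11 TPM in siDNp63, of 3 tested only DCN was called (lower), and PDGFRB and FAP had no count. The part of these marker shifts in the results on the family was not tested.

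The promoters of 4 called members are shown because they hold the start sites of the genes with the largest rise (TNFSF9), the largest fall (TNFSF11) and the highest level (TNFSF10), and the only match to a p53 family half-site (TNFRSF19). Each runs from 250 bases before to 50 bases after a RefSeq start site of GRCh38.p14, 5′ to 3′ on the gene's own strand. Capitals mark matches, on either strand, to a TATA box (TATAAA), an AP-1 site (TGANTCA), the 10-letter NF-κB site or the 10-letter p53 family half-site to which p63 also binds. TNFSF11 and TNFRSF19 have 2 start sites in the table, and the downstream one is printed. The upstream one of each held none of the 4 motifs.
TNFSF9 at chr19:6530776-6531075, plus strand: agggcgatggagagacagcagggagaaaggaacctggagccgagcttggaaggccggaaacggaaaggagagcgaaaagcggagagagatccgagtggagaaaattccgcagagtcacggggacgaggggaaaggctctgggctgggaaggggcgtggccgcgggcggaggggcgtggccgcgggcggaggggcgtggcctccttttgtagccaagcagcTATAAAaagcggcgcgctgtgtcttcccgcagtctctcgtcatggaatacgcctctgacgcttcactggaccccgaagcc
TNFSF10 at chr3:172523381-172523680, minus strand: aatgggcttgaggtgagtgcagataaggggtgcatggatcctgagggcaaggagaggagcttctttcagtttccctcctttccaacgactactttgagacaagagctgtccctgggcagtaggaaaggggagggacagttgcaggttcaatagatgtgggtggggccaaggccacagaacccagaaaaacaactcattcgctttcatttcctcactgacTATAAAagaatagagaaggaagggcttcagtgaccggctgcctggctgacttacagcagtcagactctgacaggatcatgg
TNFSF11 at chr13:42573902-42574201, plus strand: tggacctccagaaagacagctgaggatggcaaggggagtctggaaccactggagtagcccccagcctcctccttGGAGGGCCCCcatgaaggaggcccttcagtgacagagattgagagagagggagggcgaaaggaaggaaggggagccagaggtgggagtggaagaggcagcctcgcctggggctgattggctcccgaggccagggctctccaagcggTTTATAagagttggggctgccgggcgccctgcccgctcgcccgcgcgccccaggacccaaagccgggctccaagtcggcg
TNFRSF19 at chr13:23579110-23579409, plus strand: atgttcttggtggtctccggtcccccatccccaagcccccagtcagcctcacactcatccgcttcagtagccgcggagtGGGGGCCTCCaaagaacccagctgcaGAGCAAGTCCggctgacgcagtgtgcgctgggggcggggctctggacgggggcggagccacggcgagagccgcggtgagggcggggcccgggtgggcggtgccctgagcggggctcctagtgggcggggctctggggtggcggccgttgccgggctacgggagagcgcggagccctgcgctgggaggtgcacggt

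A TATA box match was present in 3 of the 9 promoters of called members that could be read. All 3 were ligand promoters, with the match at -30 in TNFSF9, -31 in TNFSF10 and, on the other strand, -30 in the downstream promoter of TNFSF11, counted from the start site. A match anywhere in the window is present in 11.5% of the 35116 promoters of the same length in the table. TNFRSF19 had the half-site at -145 and an NF-κB match at -171, and TNFSF11 an NF-κB match at -176. Over all promoters the shares were 6.63% for the half-site, 11.3% for the NF-κB site and 7.71% for the AP-1 site. Of the 15 called members, 7 had a promoter that could be read, and of the 9 promoters 1 held the half-site, 2 the NF-κB site and 0 the AP-1 letters. The 4 called members on chromosome 8 were not searched. These matches describe letters, and no binding was measured.

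The family was uneven in level. TPM corrects for transcript length, so that genes can be compared, and by this measure 3 members had a mean over 100 TPM in siCTRL. They were the ligand TNFSF10, which encodes TRAIL, the TNF receptor TNFRSF1A and the lymphotoxin β receptor LTBR. TNFSF10 led in every library, at 280.2, 284.5 and 263 TPM in siCTRL and 329, 327 and 319 TPM in siDNp63. It alone made up 96.9% to 97.7% of the summed TPM of the 18 ligands. TNFRSF1A (128.5 to 143.5 TPM in siCTRL) and LTBR (114.8 to 129.2 TPM) overlapped in range. Below them came TNFRSF12A, TNFRSF10B, TNFRSF21, CD40, TNFRSF10A and TNFRSF10D, 6 receptors between 10 and 100 TPM. Of these, only CD40 (mean 20.1 TPM) and TNFRSF10A (mean 20.0 TPM) overlapped with their neighbour in the order of siCTRL levels. A further 10 members had a mean of 1 to 10 TPM and 27 a mean under 1 TPM. Among RELT, TNFRSF11B, TNFRSF11A and TNFSF9, at means of 3.36, 3.24, 3.21 and 2.74 TPM, neighbours overlapped.

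**Figure D1:**
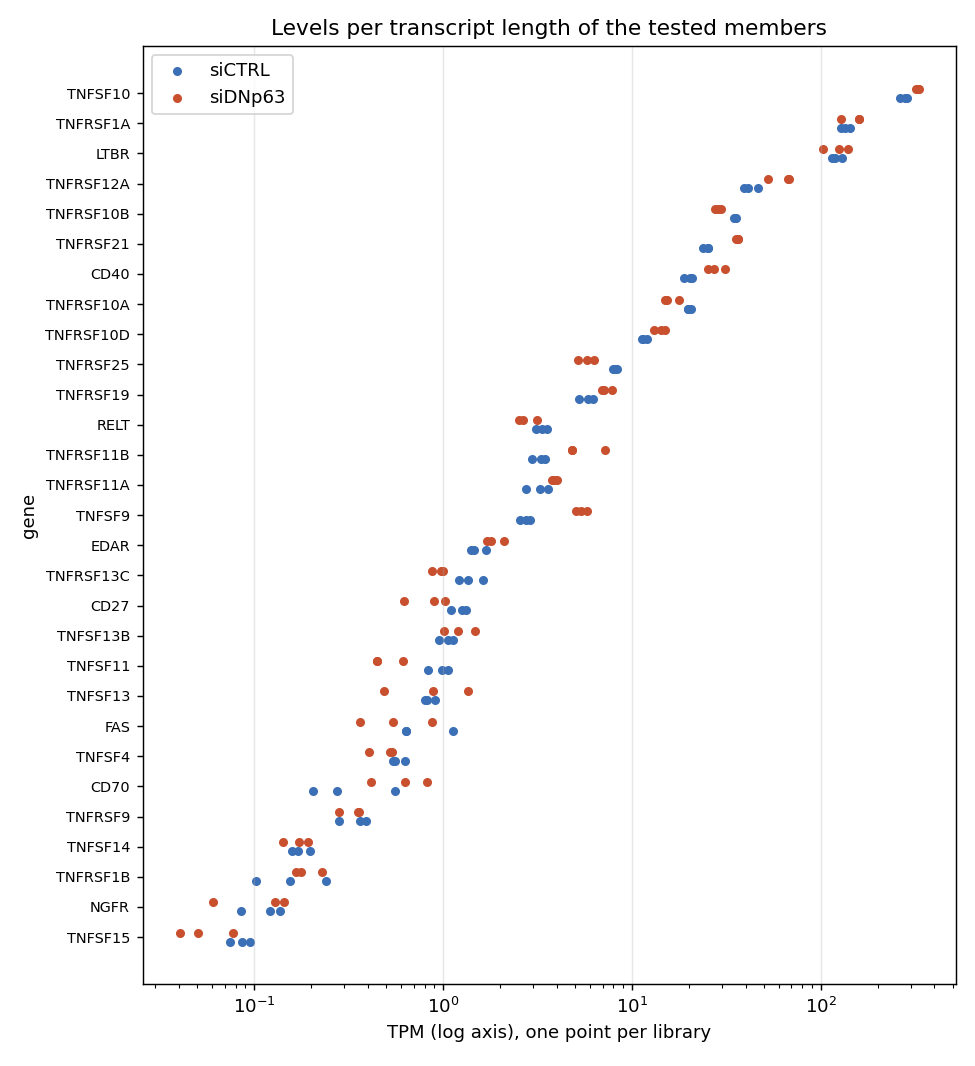
TPM of the 29 tested members in each library, on a log axis, ordered by the mean in siCTRL (blue, 3 libraries), with siDNp63 in red (3 libraries). TNFSF10 is at 263 TPM or more in all 6 libraries, and TNFSF9 and TNFRSF21 show separate blue and red points.

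Of the 46 members, 29 passed the filter on low counts and were tested, 9 of 18 ligands and 20 of 28 receptors. At an adjusted p under 0.05, 11 were higher in siDNp63 and 4 were lower (quasi-likelihood test of edgeR, Benjamini-Hochberg adjustment over the 17257 genes tested). That is 15 of 29, against 33.6% of all genes. Of all genes 18.4% were higher and 15.2% lower, so the lower members were about as frequent as among all genes. The median log2 fold change was 0.12 over the tested members and -0.02 over all genes. In bulk RNA a lower level per cell and fewer cells that express a gene cannot be told apart. Positive log2 fold changes stand for more RNA in siDNp63. TNFSF9 was the only member above a log2 fold change of 1 and TNFSF11 the only one under -1, against 2.35% and 1.71% of all genes past these limits and the test. In 16 of the 29 members all libraries of one group lay above all of the other, against 49.4% of all genes. Separate cultures are not stated for the replicates, and the tests therefore rest on library-to-library spread that may be technical.

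**Figure D2:**
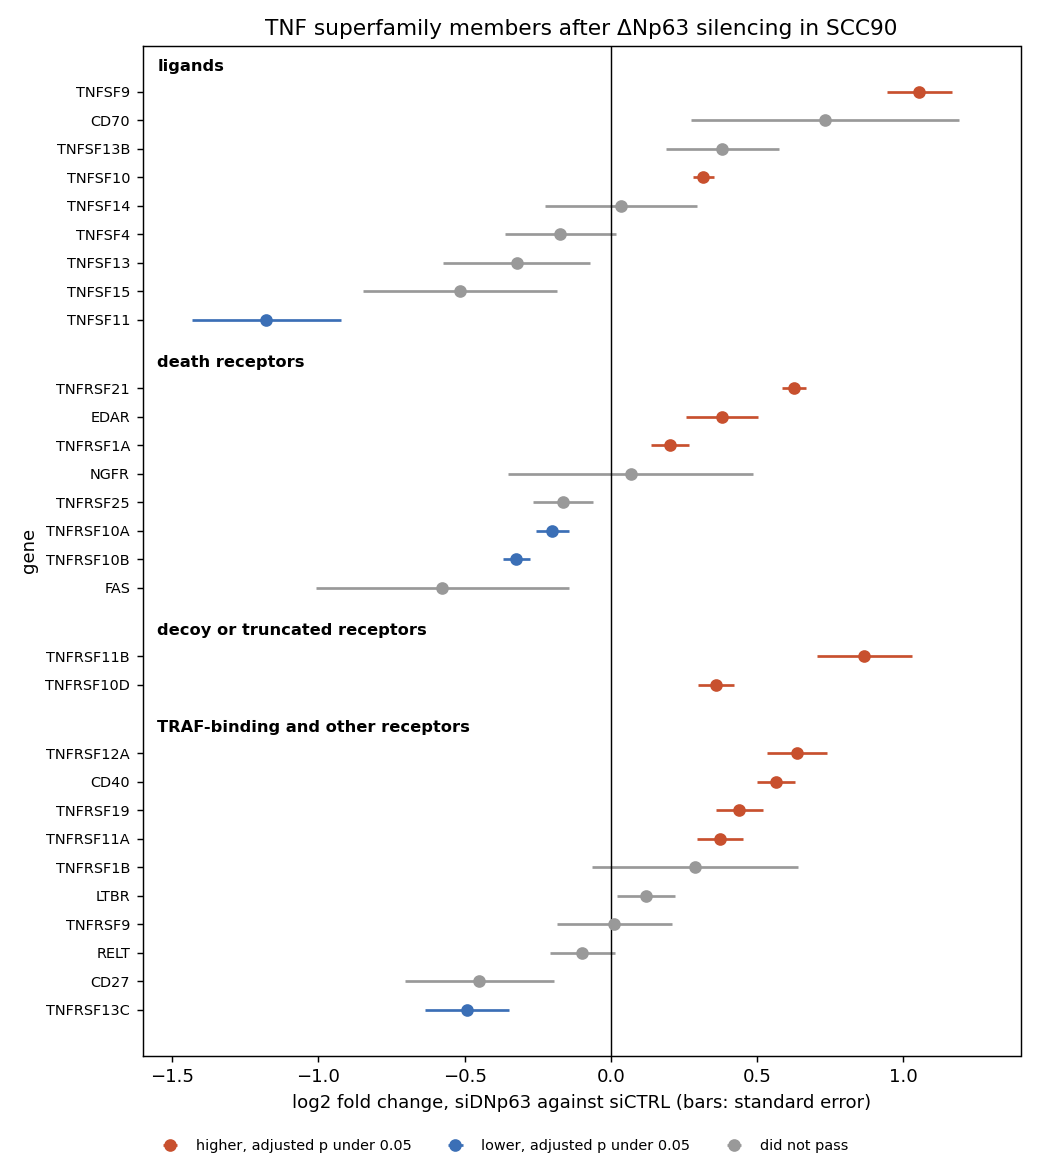
Log2 fold change of siDNp63 against siCTRL for the 29 tested members by class, with bars of 1 SE (n = 3 libraries a group). Red points are the 11 members higher and blue points the 4 lower at an adjusted p under 0.05, and TNFSF9 (1.05) and TNFSF11 (-1.18) are the extremes.

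TNFSF9 (chromosome 19, 6531026 to 6535924 of GRCh38), the 4-1BB ligand that costimulates T cells, doubled. It was at 118, 106 and 115 normalized counts in siCTRL replicates 1, 2 and 3 and at 251, 223 and 231 in siDNp63. Every siDNp63 library lay above every siCTRL library, with means of 113 ± 6.18 and 235 ± 14.2 (SD, n = 3 each). The log2 fold change was 1.05 (standard error, SE, 0.11, edgeR adjusted p = 2.71e-04). Its receptor TNFRSF9, or 4-1BB, had means of 56.3 ± 8.96 and 57.1 ± 6.45 normalized counts, and the groups overlapped (edgeR adjusted p = 0.969).

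The TRAIL group moved in opposite directions at its ligand and at its signalling receptors. TNFSF10 (chromosome 3, 172505508 to 172523475) encodes TRAIL, which can trigger apoptosis in tumour cells. It rose from 10606, 10927 and 10407 normalized counts in siCTRL to 13566, 13091 and 13112 in siDNp63, with no overlap, a 1.25-fold difference of means (log2 fold change 0.32, SE 0.04, edgeR adjusted p = 4.58e-04). TNFRSF10B (chromosome 8, 23020133 to 23069031), the death receptor DR5, fell. Its libraries were at 2446, 2396 and 2440.1 normalized counts in siCTRL and at 1988, 1997 and 1835 in siDNp63 (log2 fold change -0.32, SE 0.05, edgeR adjusted p = 0.00126). TNFRSF10A (chromosome 8, 23190452 to 23225102), the death receptor DR4, was lower by a smaller step, from 1093, 1075 and 1104 to 994, 950.2 and 906 (-0.20, SE 0.06, edgeR adjusted p = 0.0271). The groups did not overlap for either receptor, but the call of TNFRSF10A was lost in 7 of 16 alternative settings, among them the omission of any single library other than siDNp63 replicate 1. RHOBTB2, on the opposite strand, shares 7.52% of the exon bases of TNFRSF10B. TNFRSF10A shares 7.65% with TNFRSF10A-AS1 and 9.09% with TNFRSF10A-DT, both on the opposite strand and absent from the table. The reads were assigned by kallisto, which with default options does not use strand.

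Receptors that bind TRAIL without passing a death signal were higher. TNFRSF10D (chromosome 8, 23135588 to 23164027), a decoy with a shortened death domain, was at 1087, 1149 and 1097 normalized counts in siCTRL and at 1518, 1339 and 1424 in siDNp63 (log2 fold change 0.36, SE 0.06, edgeR adjusted p = 0.00274). TNFRSF11B (chromosome 8, 118923557 to 118951885) encodes osteoprotegerin, a secreted decoy for RANKL that also binds TRAIL. Its normalized counts were 141, 109 and 134 in siCTRL and 280.3, 205 and 217 in siDNp63, with replicate 1 the highest (log2 fold change 0.87, SE 0.16, edgeR adjusted p = 0.00467). The libraries of both genes separated by group. On the TPM scale TNFRSF10D amounted to 0.207, 0.215 and 0.208 of the sum of TNFRSF10A and TNFRSF10B in siCTRL, and to 0.330, 0.293 and 0.328 in siDNp63. These shares restate the single changes, since the TPM of each gene separated by group. TNFRSF10D lost its call on log2(TPM + 0.1) and log2(TPM + 1) (limma adjusted p = 0.0582 and 0.0632). These 4 TNFRSF10 genes are related copies side by side on chromosome 8, so kallisto's sharing of reads among similar transcripts can shift their levels. The last of them, the decoy TNFRSF10C, had at most 8 expected counts in a library and was not tested. Expected counts of TNFRSF10D were whole within 0.01 in every library, and those of TNFRSF10A and TNFRSF10B were not.

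The RANKL group showed a fall of the ligand beside a rise of its receptor and of its decoy. TNFSF11 (chromosome 13, 42562736 to 42608013) encodes RANKL, best known as the signal that makes osteoclasts. It was low, with 32.1, 42.6 and 50.7 normalized counts in siCTRL and 17.9, 18.0 and 19.1 in siDNp63. The 3 siDNp63 libraries were close together and below all of siCTRL (log2 fold change -1.18, SE 0.25, edgeR adjusted p = 0.00908). The call was lost on the log2(TPM + 0.1) scale (-0.82, adjusted p = 0.0550 from limma). TNFRSF11A (chromosome 18, 62325287 to 62391288), the RANKL receptor RANK, rose from 479.8, 459.7 and 484 to 564, 647 and 630.4 normalized counts (0.37, SE 0.08, edgeR adjusted p = 0.00820). The call of TNFRSF11A was lost in 3 of 16 alternative settings, among them log2(TPM + 0.1) and log2(TPM + 1) (limma adjusted p = 0.223 and 0.238). Set against osteoprotegerin, the TPM of TNFSF11 was 0.254, 0.334 and 0.310 of that of TNFRSF11B in siCTRL and 0.0854, 0.0933 and 0.0931 in siDNp63. The ratio restates the fall of TNFSF11 and the rise of TNFRSF11B, which each separated by group in TPM, and is not a further result.

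**Figure D3:**
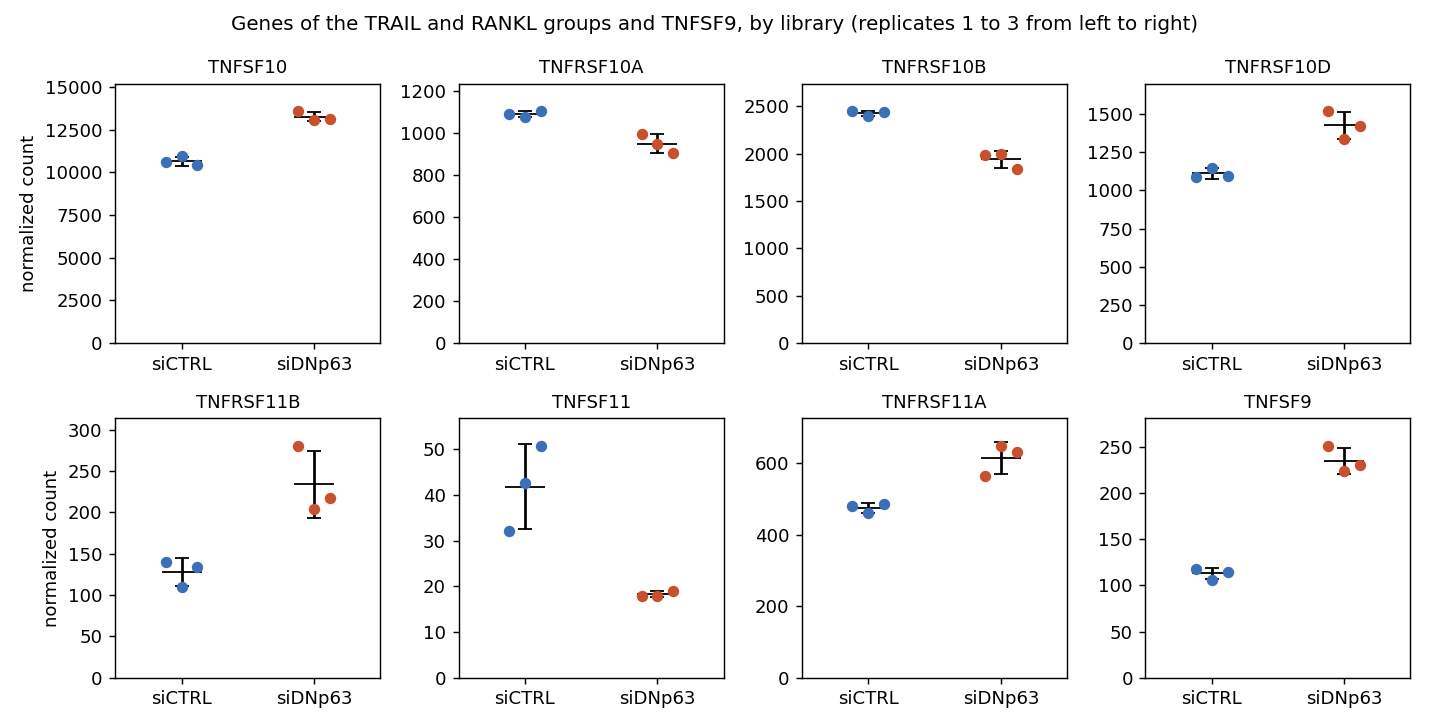
Normalized counts in each library for 8 members, from 0, with siCTRL in blue and siDNp63 in red, and the mean and SD of 3 libraries in black. TNFSF10, TNFRSF10D, TNFRSF11B, TNFRSF11A and TNFSF9 lie higher in siDNp63, and TNFRSF10A, TNFRSF10B and TNFSF11 lie lower.

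Among the other death receptors, TNFRSF21 (chromosome 6, 47231532 to 47309905) had the smallest p of the family. It encodes DR6, known for roles in neurons and in T helper cells. Its libraries were at 2449, 2311 and 2473 normalized counts in siCTRL and at 3773, 3714 and 3667 in siDNp63, far apart for the spread in each group. The means of 2411 ± 87.5 and 3718 ± 53.1 (SD, n = 3 each) differed 1.54-fold (log2 fold change 0.62, SE 0.04, edgeR adjusted p = 2.26e-05). TNFRSF1A (chromosome 12, 6328757 to 6342114), the main receptor for TNF, was at 2311, 2390 and 2325 in siCTRL and at 2416, 2843 and 2821 in siDNp63, where replicate 1 lay close to the controls. Its call (0.20, SE 0.07, edgeR adjusted p = 0.0451) was lost in 11 of 16 alternative settings. EDAR (chromosome 2, 108894471 to 108989372) was at 187, 158 and 162 against 209.9, 206 and 244 normalized counts (0.38, SE 0.12, edgeR adjusted p = 0.0453), a call lost in 13 of 16. Both genes had no overlap between groups, but their p lay just under the threshold.

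The remaining death receptors did not pass the test. FAS (chromosome 10, 88953813 to 89029605), the receptor of the Fas ligand, was scarce and split within siDNp63. It had 29.5, 47.8 and 28.2 normalized counts in siCTRL and 41.0, 14.6 and 17.2 in siDNp63 (log2 fold change -0.58, SE 0.43, edgeR adjusted p = 0.350). Without siDNp63 replicate 1 it was lower (-1.14, edgeR adjusted p = 0.0339), so 1 library decided the call. TNFRSF25, the T cell death receptor DR3, depended on the scale. Its normalized counts overlapped between groups, with means of 332 and 296 (-0.16, edgeR adjusted p = 0.266). Its TPM did not, at 8.18, 8.39 and 7.98 in siCTRL and 5.19, 5.79 and 6.27 in siDNp63, and with the average transcript length taken into account the log2 fold change was -0.45 (edgeR adjusted p = 0.0269). The neighbouring gene ESPN shares 8.98% of the exon bases of TNFRSF25 on the opposite strand, and kallisto with default options does not use strand. NGFR, the low-affinity neurotrophin receptor, had means of 10.2 and 10.8 normalized counts.

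Of the 10 tested TRAF-binding and other receptors, 4 rose and 1 was lower, against 18.4% higher and 15.2% lower over all genes. With 10 genes these counts cannot be told apart from the shares over all genes. TNFRSF12A (chromosome 16, 3018445 to 3022383), or Fn14, binds the cytokine TWEAK and is induced in injured epithelium. It was at 945, 806 and 838 normalized counts in siCTRL and at 1149, 1462 and 1409.5 in siDNp63 (log2 fold change 0.64, SE 0.10, edgeR adjusted p = 0.00229). CD40 (chromosome 20, 46118271 to 46129863), the receptor by which T cells activate B cells and epithelial cells, was at 587, 553 and 542 against 849.8, 828 and 813 (0.56, SE 0.06, edgeR adjusted p = 4.14e-04). For both genes each siDNp63 library exceeded each siCTRL library. TNFRSF19 (chromosome 13, 23570370 to 23676104), also called TROY, was at 632, 675 and 603 against 938, 846 and 808 (0.44, SE 0.08, edgeR adjusted p = 0.00409), again without overlap. The call of TNFRSF19 was lost in 2 of 16 alternative settings.

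TNFRSF13C (chromosome 22, 41922032 to 41926806), the BAFF receptor of B cells, was lower at a low level. Its normalized counts were 172, 131 and 148 in siCTRL and 110.1, 100.2 and 111 in siDNp63 (log2 fold change -0.49, SE 0.14, edgeR adjusted p = 0.0310). The groups were apart, but the call was lost in 10 of 16 alternative settings. LTBR (chromosome 12, 6375045 to 6391571), which binds lymphotoxin and LIGHT, was at 4092, 3700.2 and 3867 against 3513, 4562 and 4573 (0.12, SE 0.10, edgeR adjusted p = 0.402). The replicate 1 library of siDNp63 was the lowest of the 6 and the other siDNp63 libraries the highest, and without replicate 1 LTBR was higher (0.23, edgeR adjusted p = 0.00568). CD27, RELT, TNFRSF1B and TNFRSF9 did not pass the test, with log2 fold changes of -0.45, -0.10, 0.29 and 0.01.

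**Figure D4:**
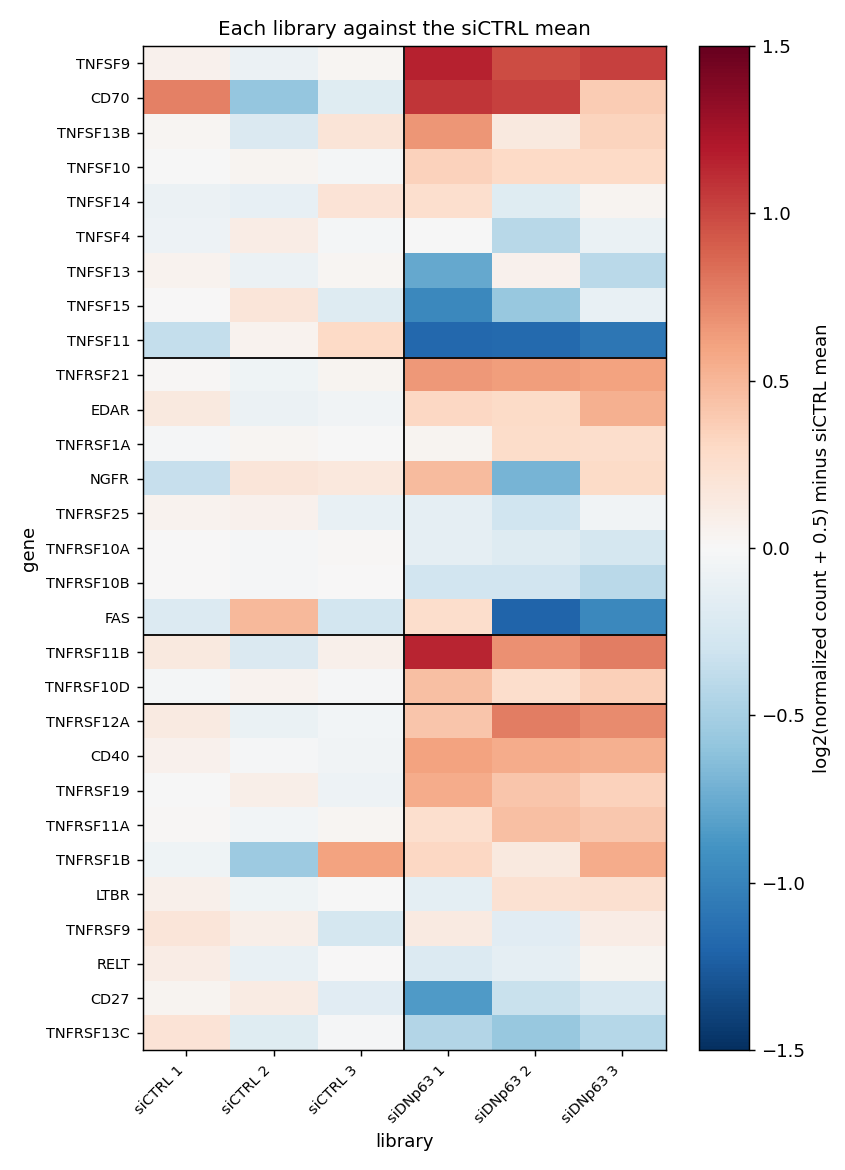
Difference of each library from the siCTRL mean in log2(normalized count + 0.5) for the 29 tested members, red for higher and blue for lower, with black lines between ligands, death receptors, decoys and TRAF-binding receptors. TNFRSF21, CD40 and TNFSF9 are alike in the 3 siDNp63 libraries, while in FAS and LTBR replicate 1 differs from replicates 2 and 3.

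The other tested ligands were all scarce, and none of them passed the test. CD70, the CD27 ligand, had a mean of 7.02 ± 3.76 normalized counts in siCTRL and 12.1 ± 3.07 in siDNp63 (log2 fold change 0.73, SE 0.46). TNFSF13B, which encodes the B cell survival factor BAFF, had means of 68.5 and 89.6 (0.38, SE 0.19). Those of TNFSF15, known as TL1A, were 15.6 and 10.8 (-0.52, SE 0.33). With standard errors of this size a change of the order of that in TNFRSF1A could not be detected in these genes. TNFSF4, TNFSF13 and TNFSF14 had log2 fold changes of -0.17, -0.32 and 0.04. TNFSF13 shares 55.5% of its exon bases with the readthrough gene TNFSF12-TNFSF13, which had at most 3.92 expected counts in a library.

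The 17 members left out by the filter had at most 11 expected counts in any library. They were the ligands CD40LG, FASLG, LTA, LTB, TNF, TNFSF8, TNFSF12, TNFSF12-TNFSF13 and TNFSF18, and the receptors TNFRSF4, TNFRSF6B, TNFRSF8, TNFRSF10C, TNFRSF13B, TNFRSF14, TNFRSF17 and TNFRSF18. TNFRSF4, TNFRSF6B and TNFRSF18 had no count in any library. CD40LG, the ligand of CD40, had no count in the 3 siCTRL libraries and 6.20, 4.10 and 9.65 expected counts in siDNp63. Against a floor of 3 counts over the siCTRL group this is 6.66-fold higher. That figure takes the siDNp63 counts as exact, so it is not a lower limit of the difference. The values are not whole, so some of these reads also matched other genes. With no filter on low counts edgeR gave CD40LG an adjusted p = 0.0135, and DESeq2 gave it none. TNF itself had 0.0250 expected counts in 1 library and 0 in the others. This fraction means that a read was shared with other rows, and whether those rows hold more reads of TNF was not tested. LTA had 0.286, 0.143, 0, 0.143, 0 and 0.286, values that 7 rows of the table share exactly, and that are sevenths of whole counts, 2 at most.

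Other genes of the pathway, those that act behind the receptors, moved in both directions. Of 59 listed genes, 57 were tested, and by the same edgeR test 13 rose and 11 fell, against 18.4% and 15.2% of all genes. Scaled by library size alone the split was 10 higher and 16 lower. MAP3K5, the stress kinase ASK1, was at 2375, 2304 and 2359 normalized counts in siCTRL and at 4499.8, 4072 and 4072 in siDNp63 (log2 fold change 0.84, SE 0.05, edgeR adjusted p = 1.29e-05). EDARADD, the adaptor that EDAR needs for its signal, fell from 782, 772 and 818 to 365, 336 and 349 (-1.18, SE 0.07, edgeR adjusted p = 1.53e-05). Neither gene overlapped between groups, and EDARADD was the only pathway gene past both thresholds. It was lower in the same libraries in which its receptor EDAR was 1.30-fold higher in mean, a rise whose call was lost in 13 of 16 alternative settings.

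The next genes by p among those that rose were TNIP1 (0.62), a brake on NF-κB, the adaptor TRAF5 (0.83), the inactive rhomboid RHBDF1 (0.78), which helps ADAM17 to mature, NFKBIA (0.36), which encodes IκBα, and ADAM17 (0.27), the protease that sheds TNF and several receptors. Among those that fell they were MLKL (-0.97), the executioner of necroptosis, TNFAIP8 (-0.58), the adaptor TRAF3IP2 (-0.43), the initiator caspase CASP10 (-0.88) and BIRC2 (-0.38), which encodes the ubiquitin ligase cIAP1. CASP8, the initiator caspase that death receptors recruit with FADD, had means of 1074 and 1032 normalized counts (edgeR adjusted p = 0.636), and FADD means of 1145 and 1261 (edgeR adjusted p = 0.119). By group, 2 of 11 tested death effectors were higher and 5 lower, and 5 of 14 genes of ubiquitin machinery and feedback were higher and 1 lower. Of 15 kinases and NF-κB subunits 3 were higher and 2 lower, of 12 adaptors 1 and 3, and of 5 genes of shedding and processing 2 and 0. Over all genes 18.4% were higher and 15.2% lower. With 5 to 15 genes a list, these counts cannot show a difference between the lists, and none was tested.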

How the data were processed

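RNA was sequenced from poly(A)-selected, stranded, single-end libraries. According to the submitters' processing notes, bcl2fastq 2.17.1.14 and kallisto 0.46.2 were used with genome build hg38. Which annotation release they used was not found in the labels or methods. The authors summed kallisto output per Ensembl gene and deposited 2 units, expected counts without scaling and TPM, which is corrected for transcript length.

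Members were found through GENCODE names on GRCh38, and all 46 were in the table. Expected counts were rounded to whole numbers, filtered with edgeR 4.0.16 (filterByExpr, minimum count 10, 17257 genes kept), normalized with TMM and tested by quasi-likelihood in edgeR with group as the only term and Benjamini-Hochberg adjustment over all genes. Alternatives were DESeq2 1.42.0, limma-voom and limma 3.58.1 on TPM, other scalings and filters, transcript length offsets, a block for the replicate number, a stricter threshold and the omission of each library. Expected counts were whole within 0.01 in all libraries for 10 of the 29 tested members, so some reads of the other 19 also matched other genes.

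Every member is accounted for, with values by library for those with an adjusted p under 0.05, and the pathway genes named are up to 6 in each direction with the smallest p. CASP8, FADD, FAS, LTBR and CD40LG were given more room after their values were seen. The members and lists were chosen with earlier results of these data known. The floor used for CD40LG covers counting error in siCTRL only, while the standard errors also include the spread between libraries of a group.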

Additional observations from a re-analysis of the deposited data

How the results depend on the processing

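Of the 15 called members, CD40, TNFRSF12A, TNFRSF10B, TNFRSF21, TNFRSF11B, TNFSF10 and TNFSF9 stayed called in all 16 alternative fits, and the other 8 lost the call in at least 1. Higher and lower members numbered 6 and 3 on log2(TPM + 0.1) and 6 and 4 on log2(TPM + 1) with limma, where 0 passed the fold limits in either direction, and the pathway genes then had 5 higher in both. Calls over all genes also changed with the setting. They were 3597 of 21150 genes on log2(TPM + 0.1) and 3586 of 21150 on log2(TPM + 1), against 5803 of 17257 in the main fit. With length offsets they were 4134 of 17257 and with a replicate block 4952 of 17257. With the length offsets 7 pathway genes were higher and 0 members passed the lower fold limit, and with library size alone 0 passed the higher one. Over all genes the median was -0.11 with library size alone and -0.02 with TMM (log2). With no filter on low counts 2 members passed the higher fold limit, CD40LG being the second. At an adjusted p under 0.005, 1 member and 6 pathway genes were lower and 0 members passed the lower fold limit. With a replicate block 2 members were lower. Deviations from the group mean were nearly uncorrelated between same-numbered libraries (r = -0.0117, 0.0174 and 0.0267). With 3 libraries a group this cannot show whether same-numbered libraries were handled together. Leaving out 1 library each, 9 to 12 members were higher, 2 to 5 lower and 1 to 2 past the lower fold limit, the highest values coming without siDNp63 replicate 1. The pathway counts then ran from 10 to 17 higher and from 8 to 13 lower. Over all genes the calls ran from 4373 of 17751 without siCTRL replicate 2 to 6840 of 17804 without siDNp63 replicate 1. TP63 was between -1.61 and -1.49 in all fits.

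The sign changed for 5 members, none of them called. TNFRSF9 was at -0.0039 with at least 10 counts in every library, -0.0745 with library size alone, -0.0479 and -0.0163 on the TPM scales with pseudocounts 0.1 and 1, -0.0040 with limma-voom and -0.0089 with length offsets. NGFR was at -0.0175 with library size alone, -0.0348 and -0.0041 on the TPM scales and -0.0084 with limma-voom. TNFSF14 was at -0.0500 with library size alone, -0.0376 and -0.0084 on the TPM scales and -0.0178 with length offsets. LTBR was at -0.00072 and -0.00064 on the TPM scales, and TNFSF13 at 0.0229 on log2(TPM + 1) and 0.164 with length offsets. Leaving out single libraries gave -0.110 to 0.108 for TNFRSF9, -0.143 to 0.383 for NGFR and -0.0684 to 0.145 for TNFSF14. The cause was not tested. Low counts limit 17 untested members and most ligands, where standard errors reached 0.46.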
